A study of Rattus norvegicus with 4 samples.

Results

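The genes described here encode histocompatibility molecules that show peptides to T lymphocytes, their partners and the peptide transporter, together with the interferon-inducible gene Ifi47. They were 10 named genes: RT1-A2, RT1-A3, RT1-Ba, RT1-Db1, RT1-Da, B2m, Cd74, Tap1, Tap2 and Ifi47. Members were found by gene symbol in the authors' normalized table, and 9 of the 10 had a probe under that symbol, with 1 probe each, among 21567 distinct symbols on the array. No probe carried the symbol RT1-Da, but 1 probe carried its older symbol H2-Ea, and that probe is given separately. The genes were selected on their measured differences between these same 4 samples, in which RT1-A2 and RT1-A3 stood out, so every value below is a description with no test.

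Illumina bead arrays, whose probes are short DNA strands fixed to beads, measured RNA from the isolated hypothalamus of male Wistar rats aged 4 months. Offspring were either controls or FR30, the label for undernourishment before birth, and ate a standard diet or a high-fat (HF) diet. This gave the groups control standard, control HF, FR30 standard and also FR30 HF, with 1 sample each, so no difference had a replicate check. The sources used here do not say whether a sample was 1 animal or a pool, and Wistar is an outbred stock. A probe was called detected at a detection p under 0.01, and between 10579 and 11122 of 22523 probes were detected per sample. Of 23 marker genes of hypothalamus, 20 were detected in all samples, and Kiss1, Nr5a1 and Sim1 in none.

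Class I histocompatibility molecules show peptides from inside the cell. Each consists of a heavy chain, encoded in the rat by RT1-A genes and their relatives, and the light chain beta-2 microglobulin, and its peptides are pumped into the endoplasmic reticulum by the transporter TAP. Class II molecules (RT1-B and RT1-D) show peptides taken up from outside and are found mainly on microglia, macrophages and other immune cells in brain, where the invariant chain CD74 escorts them. Interferon gamma induces both sets, as well as GTPases such as IFI47. The RT1 genes are highly polymorphic, the number of class I genes differs between rat haplotypes, and a bead probe designed on 1 allele can bind another less well.

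The promoters of RT1-A2, RT1-A3, the class I gene most like RT1-A3 (RT1-A1) and Ifi47 are shown because their probes varied together or in opposition across the samples. Each is the window of 250 bases before to 50 bases after the start that the RefSeq promoter table uses on assembly GRCr8, which comes from a Brown Norway rat and not from these animals. For RT1-A2, RT1-A3 and RT1-A1 that start differs from the start of the whole gene in the RefSeq gene table, and their windows reach into the annotated gene by more than 50 bases. All 10 named genes had an entry. Capitals mark matches, on either strand, to 4 motifs: the kappa-B site of enhancer A (GGGGA, any 2 bases, CCC), the Y box or reversed CCAAT box (ATTGG), the interferon-stimulated response element core (GAAA, any 2 bases, GAAA) and the gamma-activated site (TTCNNNGAA). In the class I genes, a kappa-B match on each strand overlaps into 1 run.
RT1-A2 (chr20:4872621-4872920, plus strand): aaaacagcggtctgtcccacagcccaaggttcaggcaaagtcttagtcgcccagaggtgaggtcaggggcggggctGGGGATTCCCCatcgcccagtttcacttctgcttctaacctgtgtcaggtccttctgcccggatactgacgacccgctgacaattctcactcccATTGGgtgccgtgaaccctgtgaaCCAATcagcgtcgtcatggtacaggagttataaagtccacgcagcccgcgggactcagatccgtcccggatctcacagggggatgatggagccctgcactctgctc
RT1-A3 (chr20:4849201-4849500, plus strand): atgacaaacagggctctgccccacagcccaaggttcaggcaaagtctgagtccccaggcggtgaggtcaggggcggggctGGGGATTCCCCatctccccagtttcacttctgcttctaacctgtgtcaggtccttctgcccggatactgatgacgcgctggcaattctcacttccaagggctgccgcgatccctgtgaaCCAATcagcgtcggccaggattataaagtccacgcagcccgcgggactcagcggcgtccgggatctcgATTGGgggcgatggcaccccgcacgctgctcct
RT1-A1 (chr20:4906959-4907258, plus strand): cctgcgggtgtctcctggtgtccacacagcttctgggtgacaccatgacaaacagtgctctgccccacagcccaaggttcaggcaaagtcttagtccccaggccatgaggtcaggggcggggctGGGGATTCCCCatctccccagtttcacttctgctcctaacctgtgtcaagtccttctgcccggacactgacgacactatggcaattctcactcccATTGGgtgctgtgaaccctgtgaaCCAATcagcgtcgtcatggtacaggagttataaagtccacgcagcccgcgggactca
Ifi47 (chr10:33798494-33798793, plus strand): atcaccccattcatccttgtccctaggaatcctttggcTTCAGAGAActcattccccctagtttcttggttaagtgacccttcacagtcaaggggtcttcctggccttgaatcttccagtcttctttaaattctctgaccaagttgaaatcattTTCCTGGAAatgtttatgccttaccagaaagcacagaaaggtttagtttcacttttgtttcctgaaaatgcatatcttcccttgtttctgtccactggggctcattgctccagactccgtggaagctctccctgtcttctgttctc

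The promoters of RT1-A2 and RT1-A3 were identical at 84.7% of aligned positions, with 260 identical bases, 33 mismatches and 14 gap positions. Both windows held the kappa-B match, which 1.95% of 33469 promoters of that length held. The gamma-activated site was found in the Ifi47 window, at positions -212 and -96 from the start, and in 8.87% of all promoters. Of the 10 named genes, B2m, Tap1 and Tap2 held the interferon-stimulated core (3.92% of all promoters), and 7 held the Y box (37.5%). Y boxes were found in RT1-Ba, RT1-Db1, RT1-Da and Cd74, the class II genes and their escort, and also in RT1-A2, RT1-A3 and B2m. Each motif was searched only as the pattern written, so an element that departs from it was missed. A window without a match, such as RT1-A2, RT1-A3 or Ifi47 for the interferon-stimulated core, is therefore not shown to lack that element. These are matches of letters in a window and show no binding.

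RT1-A2, a class I heavy chain gene, gave a normalized signal of 655 ± 34.1 (deposited SD) in the control standard sample, 319 ± 5.80 in control HF, 529.8 ± 8.025 in FR30 standard and 654 ± 21.2 in FR30 HF. The control HF sample stood alone at the low end, and the highest values, in control standard and FR30 HF, lay within 1 deposited SD of each other. The deposited table gives an SD beside each signal without saying what it was taken over. RT1-A3, another class I heavy chain gene, had signals of 627 ± 24.7 in control standard, 918 ± 32.2 in control HF, 642 ± 24.8 in FR30 standard and 482 ± 26.9 in FR30 HF. Its order was nearly the reverse: control HF was highest, FR30 HF lowest, and both standard-diet samples were close together in between. Ifi47, an interferon-inducible GTPase gene of cell-autonomous immunity, had signals of 227 ± 2.46, 268 ± 3.54, 237 ± 4.95 and 203 ± 5.58 in the same order of samples. The sequence from high to low was therefore the same for Ifi47 as for RT1-A3.

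**Figure D1:**
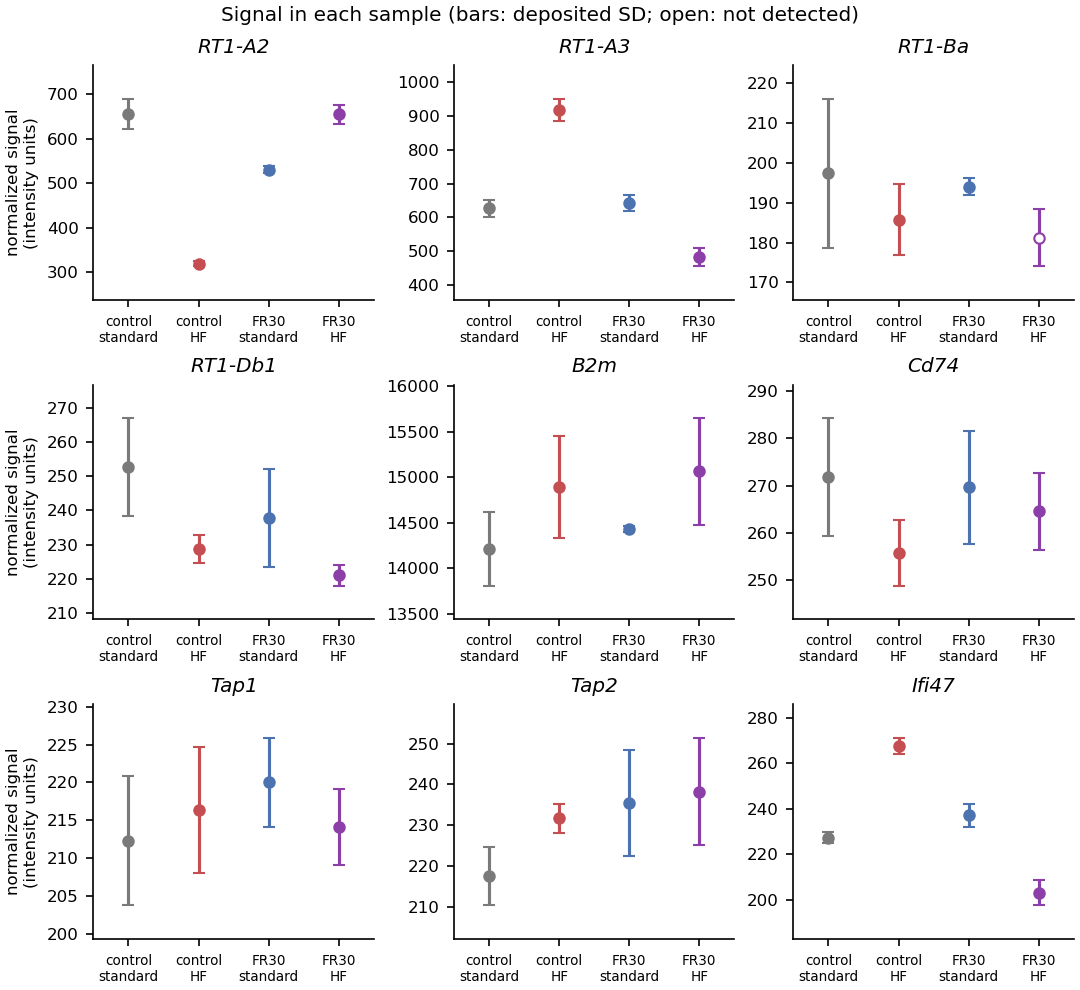
Normalized signal (intensity units, separate axis for each gene, not starting at 0) of the 9 probes in the 4 samples, with the deposited SD as bars and an open circle where the probe was not detected. RT1-A2 is lowest in control HF at 319, while RT1-A3 and Ifi47 are highest there at 918 and 268 and lowest in FR30 HF.

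B2m, which encodes the light chain of every class I molecule, was the brightest probe of the set and nearly level. Its signal was 14212 ± 409 (deposited SD) in control standard, 14890.5 ± 562 in control HF, 14426 ± 31.8 in FR30 standard and 15062 ± 584 in FR30 HF. Its log2 differences in the 4 comparisons lay between -0.01 and 0.07, and their sign in 3 of the 4 turned with the normalization. Tap1 and Tap2, the subunits of the peptide transporter, were dim. Tap1 had 212 ± 8.54, 216 ± 8.28, 220.0 ± 5.88 and 214 ± 5.01, with overlapping deposited SDs throughout. Tap2 had 217 ± 7.15, 232 ± 3.55, 235 ± 13.01 and 238 ± 13.2, lowest in control standard and similar in the other samples.

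The class II probes were dim as well, apart from that labelled H2-Ea. RT1-Db1, a class II beta chain, had 253 ± 14.3 (deposited SD) in control standard, 229 ± 3.96 in control HF, 238 ± 14.4 in FR30 standard and 221 ± 3.10 in FR30 HF. RT1-Ba, a class II alpha chain, had 197 ± 18.7, 186 ± 8.88 and 194 ± 2.08 in the first 3 samples and was not detected in FR30 HF, at 181 ± 7.196. For both genes each HF sample was below the standard-diet sample of the same offspring. These signals were not more than 2 deposited SD apart on each side in either kind of offspring. Cd74 had 272 ± 12.4, 256 ± 6.997, 269.6 ± 11.9 and 265 ± 8.14, with control HF lowest. The H2-Ea probe, matched to RT1-Da, the partner alpha chain of RT1-Db1, through a RefSeq synonym, had 1043 ± 11.1, 888 ± 24.1, 1001 ± 23.2 and 948 ± 11.6. It too was lower in each HF sample, and lowest in control HF. In whole tissue, fewer cells of a type and less RNA per cell cannot be told apart.

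The HF diet in control offspring was compared first. Each difference is a log2 value taken after correcting the background and quantile normalizing, and 1.5-fold, a log2 difference of 0.58, was used as the size threshold. RT1-A2 was lower on HF diet by 2.81-fold (log2 difference -1.49), which placed it at the bottom of 10690 probes detected in both samples. RT1-A3 was higher by 0.65, at rank 10 from the top, and Ifi47 by 0.51, at rank 27. Thus 2 of the 9 probes lay past 1.5-fold, 1 in each direction, where 0.608% of all probes did, 0.15% higher and 0.458% lower. Since these differences were part of the choice of the genes, nothing is read from that count. The remaining values were 0.22 for Tap2, 0.07 for Tap1 and B2m, -0.17 for Cd74, -0.30 for RT1-Ba and -0.32 for RT1-Db1. The median of the 9 probes was 0.07, and that of all probes 0.01. RT1-A2, RT1-A3 and Ifi47 had signals more than 2 deposited SD apart on each side, as had 1179 of the 10690 probes. The authors' normalized table retains the background, and there RT1-A2 stood at -1.04 and RT1-A3 at 0.55, short of 1.5-fold.

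In FR30 offspring the same diet contrast was opposite in sign for the leading 3 genes. RT1-A2 was higher on HF diet by 0.40, RT1-A3 lower by a log2 difference of -0.57 and Ifi47 lower by a log2 difference of -0.57. None of the 8 probes detected in both samples passed 1.5-fold, and 0.344% of all 10454 probes did, 0.21% higher and 0.134% lower. The signals of the leading 3 were more than 2 deposited SD apart on each side, as were those of 667 of the probes. RT1-Db1 differed by -0.24, and RT1-Ba, detected on standard diet alone, was at least 1.09-fold lower on HF diet. That bound sets the detected value against the lowest value among detected probes of the other sample. Tap1 (-0.10), Cd74 (-0.05), B2m (0.03) and Tap2 (0.06) differed less.

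The prenatal contrast with standard diet came next. RT1-A2 differed by -0.40, being lower in FR30 offspring, a gap of more than 2 deposited SD on each side that 1226 of 10460 probes also had, whereas RT1-A3 (0.05) was not that far apart. Tap2 was at 0.26, Tap1 at 0.14, Ifi47 at 0.13 and RT1-Db1 at -0.20, each with signals within 2 deposited SD on each side. No member reached 1.5-fold in either direction, against 0.774% of all probes, 0.239% higher and 0.535% lower.

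On HF diet the prenatal contrast set RT1-A3 and Ifi47 further apart than any other comparison. RT1-A2 was higher in FR30 than in control offspring by 2.80-fold (1.49), at rank 5 from the top of 10639 probes. RT1-A3 (-1.17) and Ifi47 (-0.94) stood at ranks 4 and 7 from the bottom. These were 3 of 8 detected probes past 1.5-fold, and 0.818% of all probes lay there, 0.555% higher and 0.263% lower. The signals of the 3 were more than 2 deposited SD apart on each side, as were those of 1314 of the probes. The other 5 lay between -0.12, for RT1-Db1, and 0.11, for Cd74. With the authors' normalized signals Ifi47 stood at -0.40, inside 1.5-fold. This comparison shares its control HF sample with the diet comparison in control offspring, so that sample's RT1-A2 and RT1-A3 values enter both.

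**Figure D2:**
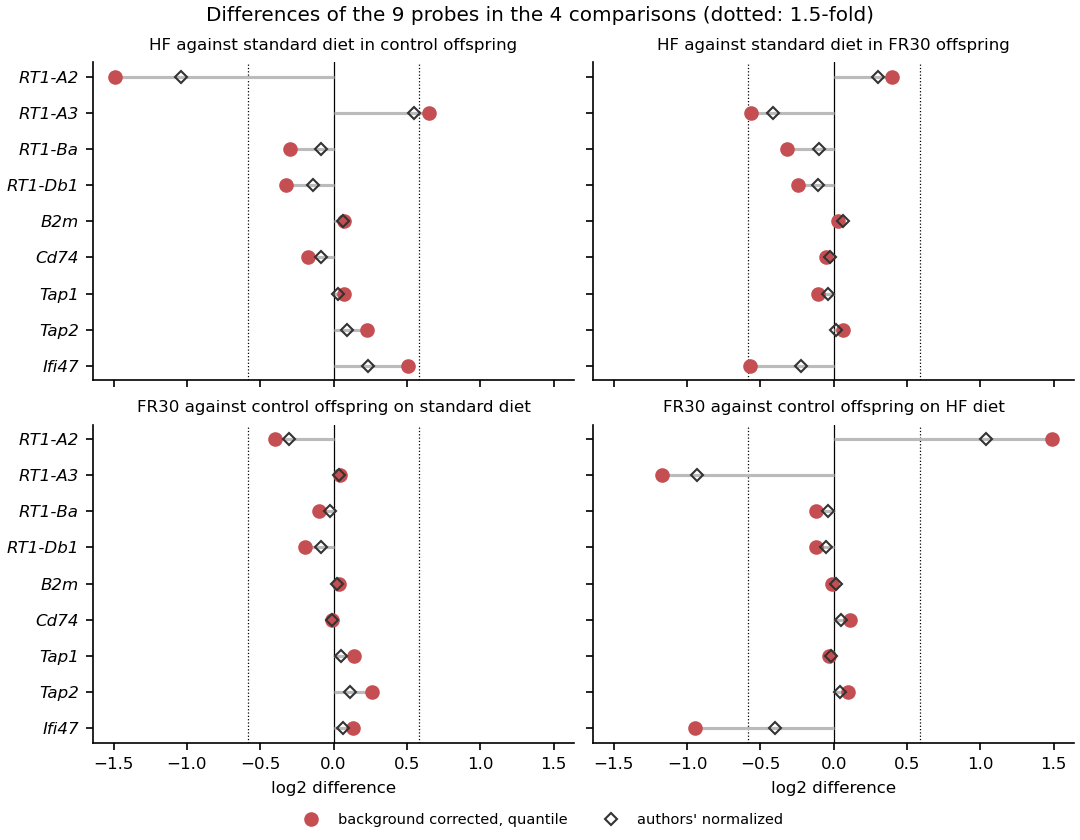
Log2 differences of the 9 probes in each of the 4 comparisons, after background correction and quantile normalization (filled circles) and from the authors' normalized signals (open diamonds), with dotted lines at 1.5-fold; RT1-Ba is drawn at its measured value although it was not detected in FR30 HF. RT1-A2 reaches -1.49 and 1.49 in the comparisons that hold the control HF sample, and the sizes are smaller with the authors' signals.

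The diet difference of FR30 offspring minus that of control offspring was 1.88 for RT1-A2, rank 4 from the top of 10373 probes detected in all samples. It was -1.21 for RT1-A3 and -1.08 for Ifi47, at ranks 6 and 8 from the bottom. These 3 of 8 lay past 1.5-fold, as did 1.27% of all probes, 0.694% higher and 0.578% lower. With the authors' normalized signals RT1-A2 stood at 1.34, RT1-A3 at -0.96 and Ifi47 at -0.46, so that 2 remained past 1.5-fold. For the other 5 detected probes the background-corrected value ran from -0.18 (Tap1) to 0.12 (Cd74). An opposite sign of the diet difference in control and FR30 offspring was found for 45.9% of all probes, and an opposite sign of the prenatal difference on the diets for 38.8%.

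**Figure D3:**
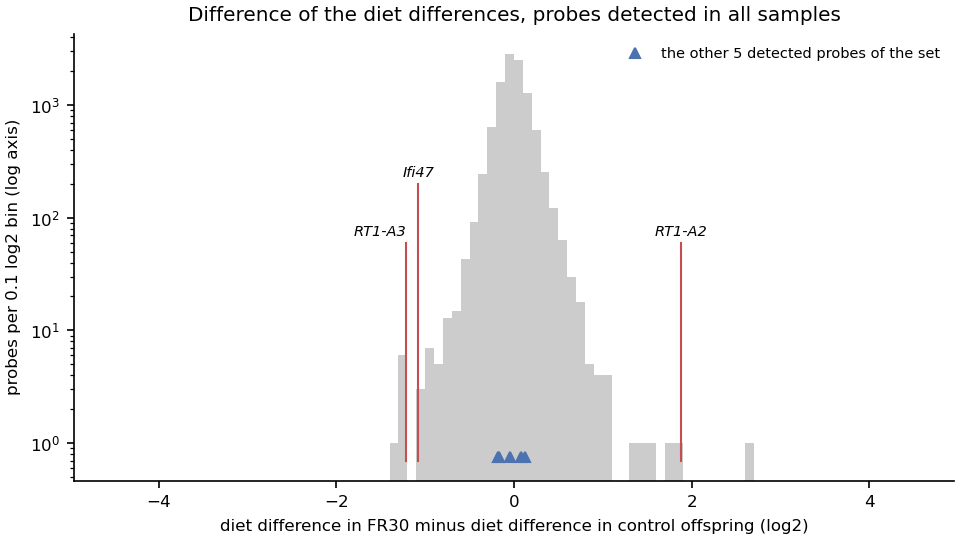
Number of probes (log axis) by the diet difference in FR30 minus that in control offspring (log2), for 10373 probes detected in all 4 samples. RT1-A2 at 1.88 and RT1-A3 and Ifi47 at -1.21 and -1.08 lie in the thin tails, and the other 5 probes (triangles) lie near 0.

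The array held 26 probes under RT1 class I symbols, of which 9 were detected in all 4 samples, 2 in some and 15 in none. Among the 7 that are not in the set and were detected throughout, RT1-A1 was most like RT1-A3. This further class I heavy chain gene had signals of 929 ± 13.5 (deposited SD) in control standard, 1350.1 ± 17.2 in control HF, 1058 ± 47.0 in FR30 standard and 889.6 ± 22.9 in FR30 HF. It was higher on HF diet in control offspring by 0.62 and lower in FR30 than in control offspring on HF diet by a log2 difference of -0.70. RT1-S3, a non-classical class I gene, had 761 ± 26.2, 852 ± 16.9, 708 ± 20.6 and 582 ± 13.9, with control HF highest and FR30 HF lowest. Its difference on HF diet was -0.66. RT1-CE7 had 303 ± 46.7, 371 ± 61.0, 376 ± 38.5 and 294 ± 15.7, and with its wide deposited SDs it was not more than 2 SD apart on each side in any of the 4 comparisons. RT1-149 had a smaller difference of the same sign, -0.20 on HF diet. RT1-CE15 (-0.03), RT1-M6-2 (0.00) and RT1-N3 (-0.06) were nearly level. RT1-CE16 was detected in control HF alone, where it was at least 1.29-fold higher than in control standard and at least 1.25-fold higher than in FR30 HF.

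**Figure D4:**
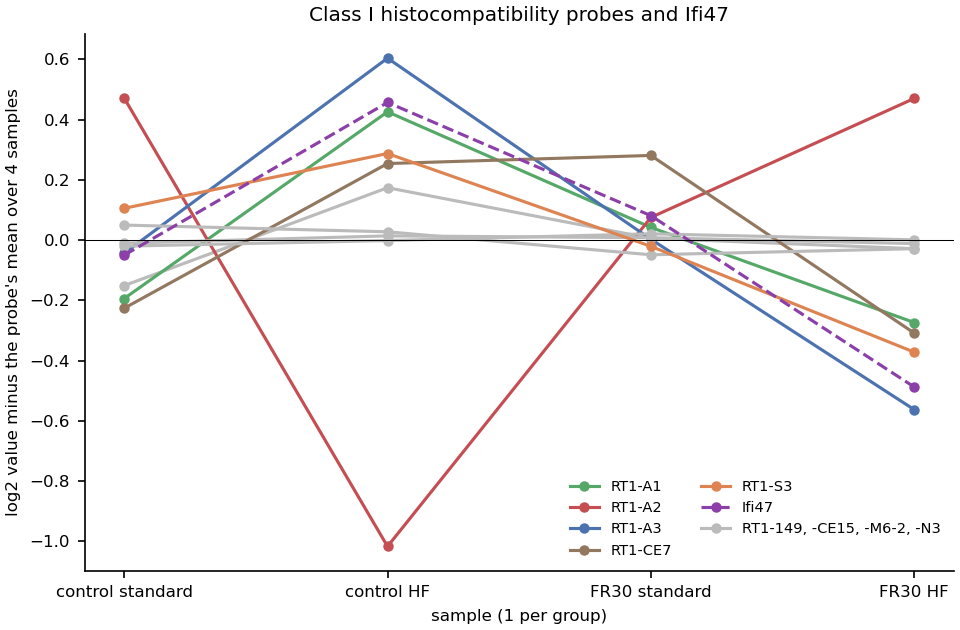
Log2 value of each class I probe detected in all 4 samples, and of Ifi47, minus the probe's mean over the samples; lines join the samples of 1 probe. RT1-A3, RT1-A1, RT1-S3 and Ifi47 are high in control HF and low in FR30 HF, and RT1-A2 runs the other way.

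Likeness was measured as the root mean square difference of log2 values after subtracting each probe's own mean, over the 4 samples, among 10365 named probes detected in all. The probe most like RT1-A3 was that of Ifi47, at 0.09, followed by LOC289855, which RefSeq names Ccdc85a by its gene number, at 0.18 and RT1-A1 at 0.19. The deviation of RT1-A3 itself from its mean was 0.41. For Ifi47 the nearest were RT1-A3 (0.09), LOC289855 (0.12) and RT1-A1 (0.13). RT1-A2 had more distant neighbours: LOC499553 at 0.23, Tmem140 at 0.29 and Aldh1a2 at 0.32, against an own deviation of 0.61. These distances rest on the background-corrected values, and the order of neighbours was not recomputed with the authors' signals. With those signals, the difference between the HF samples was -0.93 for RT1-A3, -0.60 for RT1-A1 and -0.40 for Ifi47. The place of Ifi47 as nearest to RT1-A3 may therefore depend on the background correction. With 4 points per probe and Ifi47 chosen with these values known, the figures describe these samples and carry no test.

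The RT1-A1, RT1-A2 and RT1-A3 genes lie together on chromosome 20 in the RefSeq annotation, in a stretch of 9 genes, while Ifi47 lies on chromosome 10. Outside the RT1 family and the named set, which left out Tap1 and Tap2, the 20 nearest genes were taken, 10 on each side. Each had a probe detected in all samples. Their median log2 difference was 0.02 for HF diet in control offspring and 0.02 for FR30 against control offspring on HF diet. None passed 1.5-fold in any of the 4 comparisons, where 0.344% to 0.818% of all probes did. Psmb8, a subunit of the immunoproteasome that cuts peptides for class I, was the furthest of them on HF diet at 0.45. Ring1, the nearest of them on 1 side, was at 0.43 there. For HF diet in control offspring Ring1 was the lowest of the 20 at -0.44, and Wdr46 the highest at 0.28. Ring1 and Psmb8 thus had the signs of RT1-A2 in both comparisons, at smaller size. Probe sequences were not used here, so base differences under the class I probes were not tested. With 1 sample per group, a difference in RT1 haplotype and a difference between groups cannot be told apart.

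The other genes of the class I pathway mostly differed by less. Of 26 such probes detected in both control samples, 17 had higher and 8 lower values on HF diet (median 0.06). Among all probes detected in both, 53.63% were higher. RT1-A1 alone passed 1.5-fold, where 0.608% of all probes did. Of 27 probes detected in both HF samples, 11 were higher and 16 lower in FR30 offspring, with a median of -0.03. RT1-A1 and RT1-S3 were past 1.5-fold, both lower. Of all probes 51.28% were higher there, and 0.818% were past 1.5-fold. In FR30 offspring on HF diet 1 of 27 passed, RT1-CE7 at -0.59, and between the standard-diet samples none of 26, with medians of -0.01 and 0.03. The shares of all probes past 1.5-fold there were 0.344% and 0.774%. Psmb8 had signals of 705 ± 24.7 (deposited SD) in control standard, 557 ± 15.9 in control HF, 685 ± 9.18 in FR30 standard and 718 ± 9.49 in FR30 HF. Like RT1-A2 it was lowest in control HF, by -0.42 against standard diet. Its partner Psmb9 differed by between -0.03 and -0.01 in the 4 comparisons. Tapbp, which bridges class I molecules to the transporter, differed by 0.15 on HF diet in control offspring and by -0.13 between the HF samples. Calr, a chaperone of class I assembly, differed by -0.02 and 0.10.

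Of the class II pathway list, 10 probes were detected in both control samples, 8 of them higher and 2 lower on HF diet (median 0.08). Among all probes detected in both control samples, 53.63% were higher. In the other comparisons 9 were detected, with medians of 0.05 for HF diet in FR30 offspring, -0.01 for FR30 on standard diet and 0.01 for FR30 on HF diet. None passed 1.5-fold in any, where 0.344% to 0.818% of all probes did, so a count of none is near that share. The peptide-cutting protease gene Ctss was at 0.22 on HF diet in control offspring, the direction opposite to RT1-Db1, RT1-Ba and Cd74. Between the HF samples the list ran from -0.43 for Ctss to 0.41 for Rfxank. Between the standard-diet samples it ran from -0.21 for Ctss to 0.41 for Rfxank. Ciita, the master regulator of class II transcription, was not detected in any sample. Probes labelled Hla-dma and Hla-dmb, looked up after the list was matched, differed by between -0.10 and 0.13.

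Other interferon-induced genes were set beside Ifi47. Of 32 probes of this list detected in all 4 samples, none lay past 1.5-fold in any of the 4 comparisons. Between 0.344% and 0.818% of all probes did, so a count of none is near that share. On HF diet in control offspring 11 of 33 were higher and 22 lower (median -0.07), where 53.63% of all probes were higher. Between the HF samples 21 were higher in FR30 offspring and 12 lower (median 0.10), where 51.28% of all probes were higher. Ifi47 was lower there. The medians were 0.01 for HF diet in FR30 offspring and 0.05 for FR30 on standard diet. The GTPase genes closest in function, Irgm, Igtp and Gbp2, differed between the HF samples by 0.10, 0.135 and 0.19. Irf1, a transcription factor gene induced by interferon, differed by 0.12. Cxcl9, an interferon-induced chemokine gene singled out after its values were seen, was detected in control HF alone. Its signal was 173 ± 6.25 (deposited SD) in control standard, 206 ± 5.65 in control HF, 183 ± 2.17 in FR30 standard and 172 ± 5.03 in FR30 HF. It was at least 1.35-fold higher in control HF than in control standard and at least 1.31-fold higher than in FR30 HF. The interferon genes Ifng, Ifna1 and Ifnb1 were not detected in any sample.

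Markers of other cell types were set beside these results. Of 18 T, NK and B cell marker genes with a probe, 17 were not detected in any sample, Cd3e and Cd8a among them. Lck was detected, with signals between 209 and 217. Microglia markers were detected in all samples for 19 of 23 genes, and their summed signals were 17467 in control standard, 18240 in control HF, 17457 in FR30 standard and 17687 in FR30 HF. On HF diet in control offspring 16 of 19 were higher, with a median of 0.12, while RT1-Db1, RT1-Ba, Cd74 and the H2-Ea probe were lower. Among these lower probes only H2-Ea had signals more than 2 deposited SD apart on each side. Of all probes in that comparison, 53.63% were higher. Of 14 meninges and vessel wall markers detected in all samples, all 14 were lower on HF diet in control offspring (median -0.45). On HF diet 11 were higher in FR30 than in control offspring, with a median of 0.40, where 51.28% of all probes were higher. Their summed signals were 12541, 9581, 12126 and 11945, lowest in control HF as for RT1-A2. The gene Aldh1a2 on that list differed by -0.63 and 0.78 in these comparisons. Thalamus markers had medians of -0.39 and 0.15, with summed signals of 21255, 19069, 22175 and 20048. Perivascular macrophage markers had medians of -0.08 and 0.37 over 5 probes, with summed signals between 1153 and 1266 and Cd163, Folr2 and Ms4a7 not detected. The part of these tissues in the RT1-A2, RT1-A3 and Ifi47 differences was not tested.

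**Figure D5:**
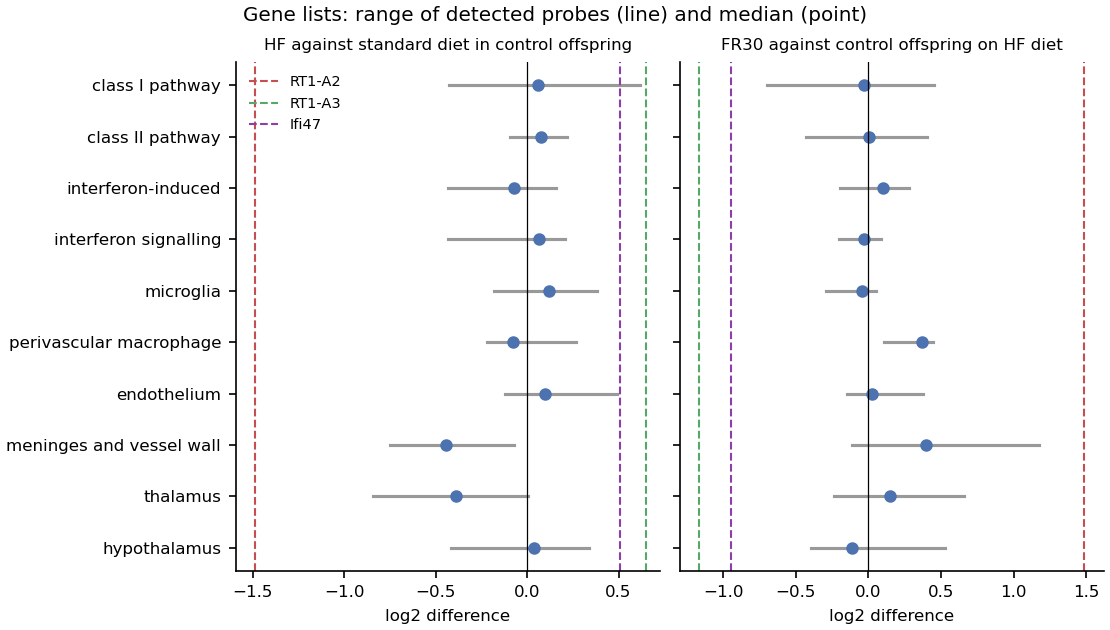
Range (line) and median (point) of the log2 differences of the detected probes of 10 gene lists, for HF diet in control offspring (left) and FR30 against control offspring on HF diet (right), with the values of RT1-A2, RT1-A3 and Ifi47 as dashed lines. The RT1-A2 value of -1.49 on the left and 1.49 on the right lies outside the range of every list shown, and the meninges list has medians of -0.45 and 0.40. The choroid plexus, blood and T, NK and B cell lists are not drawn.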

How the data were processed

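The deposited tables came from GenomeStudio, with no version given, per the submitters' processing notes. Per the file headers, the non-normalized table gives an average intensity and a detection p-value for each probe. In the normalized table the authors deposited intensities (their method is not stated in the sources used here), each with an SD and a detection p-value. A further table was identical to the normalized intensities (largest difference 0).

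The log2 values were computed from the non-normalized intensities with limma 3.58.1 in R 4.3.3 (neqc, offset 16, background from the detection p-values). All probes were kept. Python 3.11.15 and matplotlib 3.10.9 drew the plots. With 1 sample per group, differences were described by size (1.5-fold, detection p under 0.01 in the samples compared). The size calls were tested on simulated data with planted changes of at least 2-fold. That checks the calculation only, and not calls near 1.5-fold or the real differences. The members and the 13 gene lists were chosen with earlier results of these data known. Of 268 list probes, 25 were matched through an older symbol. From each list the probes past 1.5-fold (at most 4), the furthest probe in each direction of each comparison and a fixed set of pathway genes could be named; RT1-Bb, RT1-DMa, RT1-DMb and Nlrc5 of that set matched no probe. Alternatives were the authors' normalized signals, median scaling, no background correction, offset 50, other detection filters, a 2-fold threshold and 1 probe per gene. The number of arrays limits the precision.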

Additional observations from a re-analysis of the deposited data

Results flagged for a closer look

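The following genes had a diet difference of opposite sign in control and FR30 offspring, or a prenatal difference of opposite sign on the 2 diets. With 1 sample per group, the difference was not tested, and 45.9% of all probes had diet differences, and 38.8% prenatal differences, of opposite sign. The diet difference in FR30 minus that in control offspring was 1.88 for RT1-A2, -1.21 for RT1-A3 and -1.08 for Ifi47. Among the other class I probes it was -0.94 for RT1-A1, -1.07 for RT1-CE7, -0.53 for RT1-S3 and -0.36 for RT1-149. It was -0.0439 for RT1-CE15, -0.0387 for RT1-M6-2 and 0.0425 for RT1-N3. The value was -0.0425 for B2m, and further values belonged to Cd74 (0.12), Tap1 (-0.18), Tapbp (-0.17), Calr (0.21) and the H2-Ea probe of RT1-Da (0.19). Psmb8 had 0.51, Igtp 0.25, Gbp2 0.22, Irf1 0.13 and Aif1, a microglia marker, -0.10.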

How the results depend on the processing

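The counts of member probes past 1.5-fold were recomputed under 8 settings in the 4 comparisons and for the difference of the diet differences. Of these 40 counts, 36 stayed within 1.5 times the main count. For HF diet in control offspring the count was 2, and it was 1 with the authors' normalized signals, 1 without background correction and 1 at the 2-fold threshold. For HF diet in FR30 offspring it was 0, and it was 1 with median scaling. For the difference of the diet differences it was 3, and it was 2 with the authors' signals or without background correction. The prenatal contrast on HF diet had the same counts under these settings. No member probe past 1.5-fold turned its direction. Sizes depended on the background: the median size of a member's difference, relative to the main value, was 0.456 with the authors' signals and 0.511 without background correction, since these keep the background, 0.795 with an offset of 50 and 0.999 with median scaling. Some B2m differences near 0 turned sign with the scaling. No paired analysis was possible because each group held 1 sample, and no sample could be left out for the same reason. The dim probes (RT1-Ba, RT1-Db1, Cd74, Tap1, Tap2, Ifi47) lay close to the background, where signal limits what can be seen.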

Other observations

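Genes that pass on the interferon signal (receptors, JAK kinases and their brakes) had 11 probes detected in all samples. In FR30 offspring 8 were lower and 3 higher on HF diet (median -0.12), and in control offspring 6 were higher and 5 lower (median 0.07). Of all probes, 48.73% were higher on HF diet in FR30 and 53.63% in control offspring. For the prenatal contrast the median was 0.04 with standard diet and -0.03 with HF diet. None of the 11 passed 1.5-fold, where at most 0.818% of all probes did. The receptor subunit gene Ifngr1 had 0.21 on HF diet in control offspring. Of the 10 endothelial marker probes none passed 1.5-fold, where at most 0.818% of all probes did. Their medians lay between 0.00 and 0.10 in the 4 comparisons, and the tight junction gene Ocln stood at 0.49 in controls on HF diet.

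Hbb, which encodes beta-globin, differed with HF diet by 0.89 in control and by 0.86 in FR30 offspring. The summed signals of blood markers were 24708 in control standard, 40777 in control HF, 26886 in FR30 standard and 42745 in FR30 HF. Unlike RT1-A2, RT1-A3 and Ifi47, this list had the same direction in both kinds of offspring. Of 10 choroid plexus markers 2 were detected in all samples. Ttr stood at 3.91 for HF diet in FR30 offspring and at -2.38 for FR30 offspring on standard diet. It was not detected in control HF, the sample in which RT1-A2 was lowest, and so has no value in the comparisons with that sample. The median of the 20 hypothalamus marker probes was 0.04 for HF diet in control and 0.02 in FR30 offspring. For the prenatal contrast it was -0.13 with standard diet and -0.11 with HF diet.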
